A study of Mus musculus with 9 samples.

Results

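The genes described here are 8 receptors of the T cell surface, chosen by symbol from the 13698 genes of the deposited table: Pdcd1, Ctla4, Tigit, Lag3, Klrg1, Btla, Icos and Cd28. All 8 had a row. They were measured by RNA-seq in 9 libraries of sorted mouse regulatory T (Treg) cells taken from spleen and lymph node on a mixed C56Bl6/129 background, with 3 libraries to a group, and all the mice were females carrying a Foxp3 allele that makes Cre recombinase and YFP on one X chromosome. The deficient cells were sorted as YFP+ MHCII- from mice with floxed LRF and Thpok alleles (LRFffThpokff Foxp3 Cre-YFP/X), so that Cre acts only in cells using the Foxp3-YFP-Cre allele. The animal controls were YFP- MHCII- CD25hi cells from those same mice, which use the unmodified Foxp3 allele and keep both factors, so that this comparison also differs in Foxp3 allele and sorting gate, and these cannot be told apart from the loss of the factors. The genetic controls were YFP+ MHCII- cells from other mice, wild type for both factors, with the same Foxp3 Cre-YFP allele. The sources used here give neither ages nor whether a library number stands for 1 mouse or a pool, so the p-values measure the spread between these libraries.

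CD28, CTLA-4, ICOS, PD-1 (the product of Pdcd1) and BTLA belong to the CD28 family of immunoglobulin-like receptors. CD28 binds CD80 and CD86 and gives the second signal for T cell activation, ICOS binds ICOS ligand and supports effector Treg cells, and CTLA-4 takes CD80 and CD86 away from CD28 and is central to Treg suppression. PD-1 and BTLA recruit tyrosine phosphatases, whereas TIGIT (which binds CD155), LAG-3 (a relative of CD4 that binds MHC class II) and KLRG1 (a lectin-like receptor of cadherins) are inhibitory receptors outside that family, frequent on effector Treg cells. Thpok and LRF, encoded by Zbtb7b and Zbtb7a, are zinc finger repressors that maintain CD4-lineage T cells.

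Values are in CPM, read counts scaled to library size, which the authors deposited as normalized log2 values. Zbtb7b measured 0.260 ± 0.110 CPM (SD, n = 3) in the deficient cells, and at least 76.9 CPM in every control library. Zbtb7a measured 89.5 ± 12.6 CPM (SD, n = 3) in the deficient cells, within the range of the controls; the values are per gene, so this does not check its deletion. All 7 T cell markers examined were measured above 1 CPM in every library, and so were the 10 Treg markers, though Foxp3 averaged 32.2 ± 5.02 CPM in deficient libraries and 33.3 ± 7.38 CPM in genetic controls against 905 ± 132 CPM in animal controls (SD, n = 3 each). The read depth is unknown, and between 8.0% and 11.4% of genes sat at the lowest value of the table (0.00457 CPM) in a library. In sorted bulk cells, fewer cells of a type and less RNA per cell cannot be told apart.

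Compared with both kinds of control, the deficient cells had less Pdcd1, Tigit and Klrg1, and compared with the animal controls also less Icos. Of the 8 receptors, 3 fell and 0 rose against the genetic controls, where 0.533% of all genes fell and 0.336% rose (0.869% in either direction). Against the animal controls 4 fell and 0 rose, where 0.584% of all genes fell and 0.307% rose (0.891% in either direction). These calls are from limma with Benjamini-Hochberg adjustment over all genes, at a false discovery rate under 0.05. Every deficient library lay below every genetic control library for 6 of the 8, against 7.28% of all genes (15.7% lying wholly lower or wholly higher), and the count was also 6 against the animal controls, against 8.10% of all genes (15.9% either way). Ctla4 and Lag3 were the receptors whose groups overlapped in both comparisons. The median log2 difference of the 8 was -1.35 against the genetic controls and -1.59 against the animal controls, beside 0.04 and 0.04 for all genes tested. Both comparisons use the same deficient libraries.

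**Figure D1:**
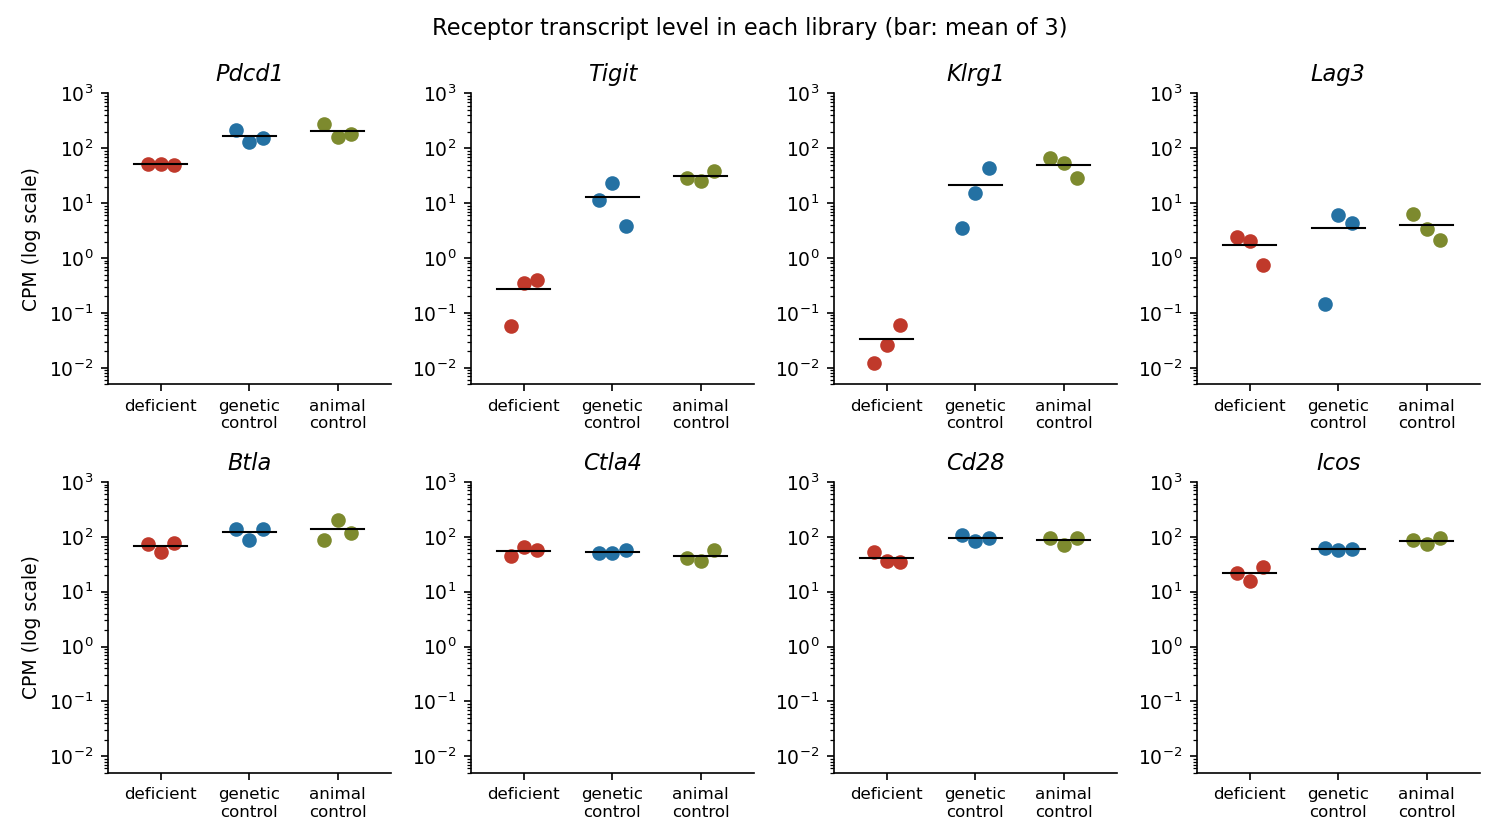
Level of each receptor transcript in every library, as CPM on a log axis, by group; each point is a library and each bar the mean of 3 libraries. Tigit and Klrg1 lie below 1 CPM in all deficient libraries, Ctla4 stays between 36.6 and 65.8 CPM in all 9, and Lag3 is low in every group.

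Promoter sequence is shown for the 4 receptors that RefSeq's promoter table (GRCm38.p6) matched, so that 2 that fell (Pdcd1 and Tigit) can be read beside 2 that did not pass the test (Btla and Ctla4). Each runs 5′ to 3′ on the gene's strand, from 250 bases before the start site through the 50 bases that begin with it. The windows are chr1:94052504-94052803 on the minus strand for Pdcd1, chr16:43664135-43664434 on the minus strand for Tigit, chr16:45224087-45224386 on the plus strand for Btla and chr1:60908775-60909074 on the plus strand for Ctla4. Capitals mark matches, on either strand, to a RUNX core (TGTGGT), an AP-1 site (TGANTCA), an NFAT core (GGAAAA), a GC box (GGGCGG) or an E-box (CAGGTG).
Pdcd1: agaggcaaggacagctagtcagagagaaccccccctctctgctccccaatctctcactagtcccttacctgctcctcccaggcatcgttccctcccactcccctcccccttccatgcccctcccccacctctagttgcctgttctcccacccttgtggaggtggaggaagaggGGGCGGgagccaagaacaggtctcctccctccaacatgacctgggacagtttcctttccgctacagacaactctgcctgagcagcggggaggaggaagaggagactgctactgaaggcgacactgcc
Tigit: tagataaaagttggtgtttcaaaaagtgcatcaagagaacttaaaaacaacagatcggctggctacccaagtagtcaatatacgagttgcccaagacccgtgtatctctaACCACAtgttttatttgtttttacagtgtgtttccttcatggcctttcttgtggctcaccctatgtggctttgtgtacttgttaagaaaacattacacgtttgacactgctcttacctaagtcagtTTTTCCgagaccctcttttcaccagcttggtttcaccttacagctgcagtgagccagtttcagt
Btla: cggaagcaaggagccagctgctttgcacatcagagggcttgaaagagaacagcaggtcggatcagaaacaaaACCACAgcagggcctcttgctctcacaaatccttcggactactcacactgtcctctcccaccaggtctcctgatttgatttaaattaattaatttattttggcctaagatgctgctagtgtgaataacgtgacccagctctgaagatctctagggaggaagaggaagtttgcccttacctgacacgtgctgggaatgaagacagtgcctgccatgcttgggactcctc
Ctla4: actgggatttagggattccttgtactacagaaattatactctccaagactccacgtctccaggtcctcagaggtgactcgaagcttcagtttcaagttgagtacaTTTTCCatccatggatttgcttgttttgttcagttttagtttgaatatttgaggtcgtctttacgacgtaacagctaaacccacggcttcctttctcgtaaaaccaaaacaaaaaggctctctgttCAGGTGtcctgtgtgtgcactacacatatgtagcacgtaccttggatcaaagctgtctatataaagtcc
The Pdcd1 window was the richest of the 4 in G and C (60.7%, against 41.3% for Tigit, 49.0% for Btla and 42.0% for Ctla4; the median of 32851 promoter windows was 52.7%) and held a GC box at position -77 from the start site, a motif present in 35.7% of all windows. The Tigit window held a RUNX core at -140 and an NFAT core at -14, and the Btla window a RUNX core at -178; 16.8% of all windows hold that RUNX core and 23.4% that NFAT core. The Ctla4 window held an NFAT core at -145 and an E-box at -19, the latter in 20.2% of all windows. No window of the 4 held the AP-1 letters, which 7.81% of all windows hold. No motif was shared by Pdcd1 and Tigit, the receptors of this set that fell, while the RUNX core was shared by Tigit and Btla and the NFAT core by Tigit and Ctla4.

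Pdcd1 (ENSMUSG00000026285.7, chromosome 1, 94038305 to 94052553 on GRCm38) encodes PD-1. It measured 52.6, 51.3 and 48.8 CPM in the deficient libraries 142114, 232614 and 432614. The genetic controls 124, 8619 and 8800 measured 218, 130 and 157 CPM. The animal controls 142114, 232614 and 432614 measured 280.3, 159 and 181 CPM. The deficient libraries were close to one another, with a highest value 1.08 times the lowest, and all lay below every control. The log2 difference was -1.69 ± 0.27 (SE, n = 3 against 3; limma adjusted p = 0.0229) against the genetic controls and -1.98 ± 0.27 (limma adjusted p = 0.00845) against the animal controls. Within each mouse number, the animal control was 5.33, 3.10 and 3.71 times the deficient library. The call against the genetic controls was lost without library 124 (limma adjusted p = 0.0663), library 8800 (0.0794) or any deficient library (0.0664, 0.0619 and 0.0662 without 142114, 232614 and 432614). It was also lost in limma without the trend (adjusted p = 0.101) and on the 6 libraries compared alone (0.0625). Leaving out both genetic control 8619 and animal control 232614 lost it too (0.0780). The call against the animal controls was lost in limma without the trend (adjusted p = 0.0538) and with the mouse as a fixed term (0.223). That paired limma fit called 0 of all genes tested, with 1395 at an unadjusted p under 0.05, among them 5 of the 8 receptors.

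Tigit (ENSMUSG00000071552.5, chromosome 16, 43648867 to 43664146) was under 1 CPM in every deficient library; its median percentile among all genes of a library was 18.6 in the deficient cells, 43.6 in the genetic controls and 58.0 in the animal controls. Deficient libraries 142114, 232614 and 432614 measured 0.0566, 0.347 and 0.400 CPM. Genetic controls 124, 8619 and 8800 measured 11.6, 23.5 and 3.78 CPM, and animal controls 142114, 232614 and 432614 measured 29.0, 25.9 and 38.0 CPM. The groups did not overlap, although the genetic controls spread 6.22-fold among themselves, and all 3 of them lay below the animal controls. Tigit fell against the genetic controls by 5.67 ± 1.06 on the log2 scale (SE, n = 3 against 3; limma adjusted p = 0.0447) and against the animal controls by 7.27 ± 1.06 (limma adjusted p = 0.0124). Such folds depend on the lowest values: on log2(CPM + 1) they were -3.18 (limma adjusted p = 0.0861) and -4.65. The first call was lost without any 1 of the 9 libraries (limma adjusted p between 0.0662 and 0.175), and the second without animal control 142114, 232614 or 432614 (0.0605, 0.0528 and 0.0714) and with the mouse as a fixed term (0.284). Without the trend (limma adjusted p = 0.0608) and in the robust fit (0.0622) the first was lost as well. Both were lost on the 6 libraries compared alone (0.199 and 0.0682) and without both genetic control 8619 and animal control 232614 (0.242 and 0.0929).

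Klrg1 (ENSMUSG00000030114.8, chromosome 6, 122270596 to 122282882), a receptor of highly differentiated T and NK cells, had the lowest level of the 8 in the deficient cells. It measured 0.0120, 0.0260 and 0.0612 CPM in deficient libraries 142114, 232614 and 432614. Lgals3, Prdm1 and Egr3 had the same 0.0120 CPM in library 142114, so values this low are shared steps and not precise abundances. The genetic controls 124, 8619 and 8800 measured 3.56, 15.3 and 44.2 CPM, a 12.4-fold spread. The animal controls 142114, 232614 and 432614 measured 65.8, 53.3 and 28.4 CPM. Every deficient library lay under 0.1 CPM and every control above 3 CPM, and the control groups overlapped each other. The log2 difference was -8.97 ± 1.20 (SE, n = 3 against 3; limma adjusted p = 0.00985) against the genetic controls and -10.76 ± 1.20 (limma adjusted p = 0.00338) against the animal controls, or -3.86 and -5.52 on log2(CPM + 1). The first call was lost on that scale (limma adjusted p = 0.0745) and without genetic control 8619 (0.0559) or 8800 (0.0618). It was also lost on the 6 libraries compared alone (0.0958) and without both genetic control 8619 and animal control 232614 (0.125). The second call was lost with the mouse as a fixed term (0.280) and without both of those libraries. Of the 9 NK cell markers examined, 5 were measured, and 0 of these were called against either control. Their summed level was higher in the deficient cells (59.3 to 126 CPM) than in the genetic (16.4 to 51.5 CPM) or animal controls (24.9 to 32.2 CPM). Most of it was Prf1 (means of 81.1, 24.4 and 19.1 CPM in that order). Klrb1c, under 1 CPM in 5 libraries, averaged 0.891, 3.71 and 1.46 CPM in deficient cells, genetic controls and animal controls, and Eomes 3.06, 5.39 and 3.90 CPM, so the markers did not all lie in one direction, and the part of NK cells in the Klrg1 result was not tested.

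Lag3 (ENSMUSG00000030124.2, chromosome 6, 124904361 to 124911705) was low in all 3 groups. It measured 2.4, 2.06 and 0.733 CPM in deficient libraries 142114, 232614 and 432614, and 0.147, 6.04 and 4.35 CPM in genetic controls 124, 8619 and 8800. Animal controls 142114, 232614 and 432614 measured 6.24, 3.41 and 2.17 CPM. All groups overlapped, and genetic control 124 was the lowest library of all. The log2 difference was -0.03 against the genetic controls (95% interval -3.39 to 3.33; limma adjusted p = 1) and -1.22 against the animal controls (-4.58 to 2.14; limma adjusted p = 0.826), so a change of several-fold either way was not detectable at this level. The animal control was higher than its deficient counterpart within each mouse number, by 2.6, 1.66 and 2.97 times. Cd4, its relative, lies 16.1 kb away and fell against both controls (log2 difference -1.27 ± 0.15, limma adjusted p = 0.00488, and -1.32 ± 0.15, limma adjusted p = 0.00338; SE, n = 3 against 3).

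Btla (ENSMUSG00000052013.15, chromosome 16, 45224315 to 45257670), the inhibitory receptor for HVEM, did not pass the test. Deficient libraries 142114, 232614 and 432614 measured 75.6, 53.8 and 77.9 CPM. Genetic controls 124, 8619 and 8800 measured 139, 89.0 and 141 CPM, and animal controls 142114, 232614 and 432614 measured 88.2, 207 and 117 CPM. The deficient libraries were below all 6 controls, but by little in the case of genetic control 8619 and animal control 142114. The log2 differences were -0.82 (95% interval -1.58 to -0.06; limma adjusted p = 0.433) and -0.92 (-1.67 to -0.16; limma adjusted p = 0.325). Within mouse numbers the ratio of animal control to deficient library ran from 1.17 in 142114 to 3.85 in 232614.

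Cd28, Ctla4 and Icos stand next to one another on chromosome 1, within 284 kb. Cd28 (ENSMUSG00000026012.2, 60716800 to 60773359) and Ctla4 (ENSMUSG00000026011.13, 60887000 to 60915832) are 114 kb apart, and Icos (ENSMUSG00000026009.14, 60977927 to 61000320) begins 62.1 kb after Ctla4, all on the plus strand. The annotation also places the pseudogene Rpl18-ps1, a separate row at 16.1 CPM in the deficient cells, inside the annotated span of Ctla4.

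Icos measured 22.2, 15.9 and 28.8 CPM in deficient libraries 142114, 232614 and 432614. It measured 63.6, 56.7 and 58.9 CPM in genetic controls 124, 8619 and 8800, and 86.4, 73.5 and 94.9 CPM in animal controls 142114, 232614 and 432614. The 3 groups were fully separated, with the genetic controls between the other two. Icos fell against the animal controls (log2 difference -1.96 ± 0.30, SE, n = 3 against 3; limma adjusted p = 0.0138), and its difference from the genetic controls was -1.46 ± 0.30 (limma adjusted p = 0.0638). The difference between the control groups themselves was -0.50 ± 0.30 (genetic minus animal; limma adjusted p = 0.816), so the size of the Icos difference was not shown to depend on the control. The call was lost without animal control 142114 (limma adjusted p = 0.0621) or 432614 (0.0754) and with the mouse as a fixed term (0.284). It was also lost on the 6 libraries compared alone and without both genetic control 8619 and animal control 232614.

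Cd28 measured 52.0, 36.5 and 34.4 CPM in deficient libraries 142114, 232614 and 432614. Genetic controls 124, 8619 and 8800 measured 108, 85.0 and 94.5 CPM, and animal controls 142114, 232614 and 432614 measured 94.2, 70.5 and 94.4 CPM. All deficient libraries were below all controls, and the control groups overlapped each other. Within mouse numbers the animal control was 1.81, 1.93 and 2.75 times the deficient library. The log2 differences of -1.24 (95% interval -1.83 to -0.66) and -1.09 (-1.67 to -0.50) did not pass the test after adjustment (limma adjusted p = 0.0715 and 0.110).

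Ctla4 measured 44.0, 65.8 and 57.2 CPM in deficient libraries 142114, 232614 and 432614. Genetic controls 124, 8619 and 8800 measured 50.3, 50.3 and 57.4 CPM, and animal controls 142114, 232614 and 432614 measured 41.8, 36.6 and 58.2 CPM. The 3 groups overlapped. The log2 difference was 0.06 against the genetic controls (95% interval -0.59 to 0.72; limma adjusted p = 0.985) and 0.30 against the animal controls (-0.35 to 0.95; limma adjusted p = 0.769). A fall as large as the estimate for Icos or Cd28 lies outside both intervals.

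All 3 pairs of the cluster were then compared within each library, a comparison chosen after the values were seen and given without a test, as the log2 CPM of one gene minus that of the other, a quantity in which gene length cancels when groups are compared. Ctla4 minus Icos ran from 0.99 to 2.05 in the deficient libraries, from -0.34 to -0.04 in the genetic controls and from -1.05 to -0.71 in the animal controls. Ctla4 minus Cd28 ran from -0.24 to 0.85 in the deficient libraries, from -1.10 to -0.72 in the genetic controls and from -1.17 to -0.70 in the animal controls. Both quantities were higher in every deficient library than in any control. Against genetic and animal controls the mean shifts were 1.52 and 2.26 for Ctla4 minus Icos, and 1.31 and 1.39 for Ctla4 minus Cd28. These shifts restate the differences of the single genes given above and are no separate result. Icos minus Cd28 overlapped between deficient cells and genetic controls (shift -0.22), and lay below the animal controls in every deficient library (shift -0.88).

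**Figure D2:**
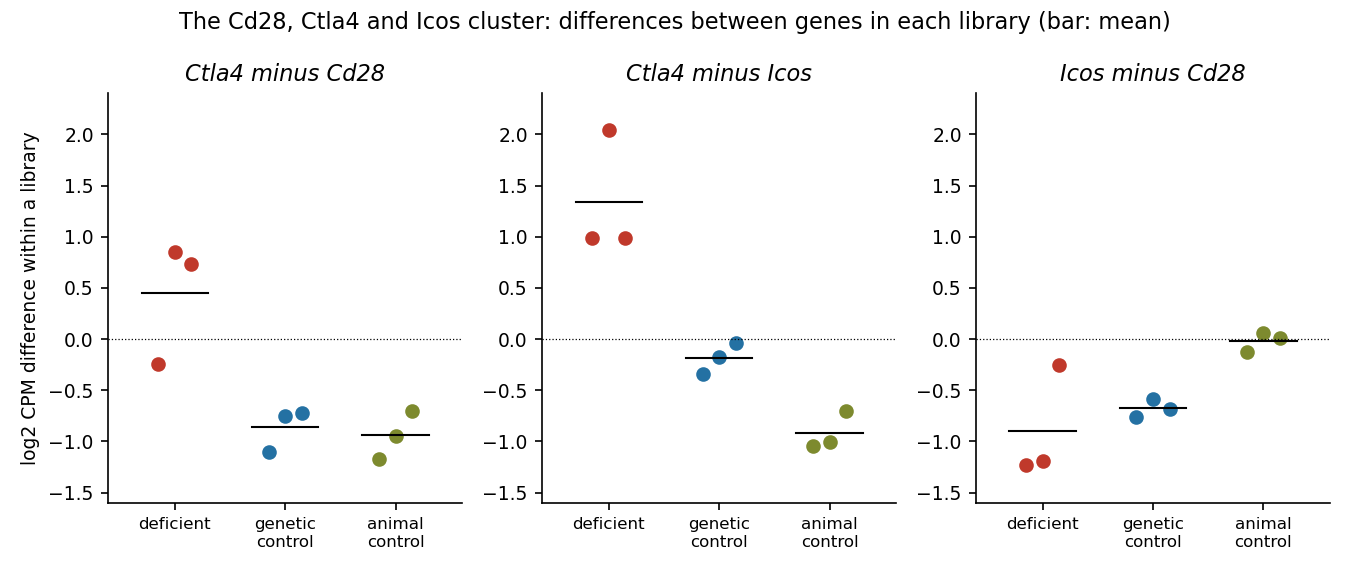
Difference in log2 CPM between 2 genes of the chromosome 1 cluster within each library, by group; each point is a library and each bar the mean of 3. For Ctla4 minus Cd28 and Ctla4 minus Icos all deficient libraries lie above all control libraries, whereas Icos minus Cd28 overlaps between deficient cells and genetic controls.

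None of the 8 receptors passed the test between the genetic and animal controls, where 0.0365% of all genes did (limma, false discovery rate under 0.05; 0 of the 8 had an unadjusted p under 0.05, against 907 of all genes, and all 8 missed the threshold in every alternative fit, including limma without the trend). Tigit and Icos were lower in all genetic than in all animal control libraries, 2 of 8 against 5.57% of all genes lying wholly lower and 10.4% lying wholly apart in either direction. Tigit differed between the controls by -1.6 (95% interval -3.98 to 0.78) and Klrg1 by -1.79 (-4.47 to 0.90) on the log2 scale.

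**Figure D3:**
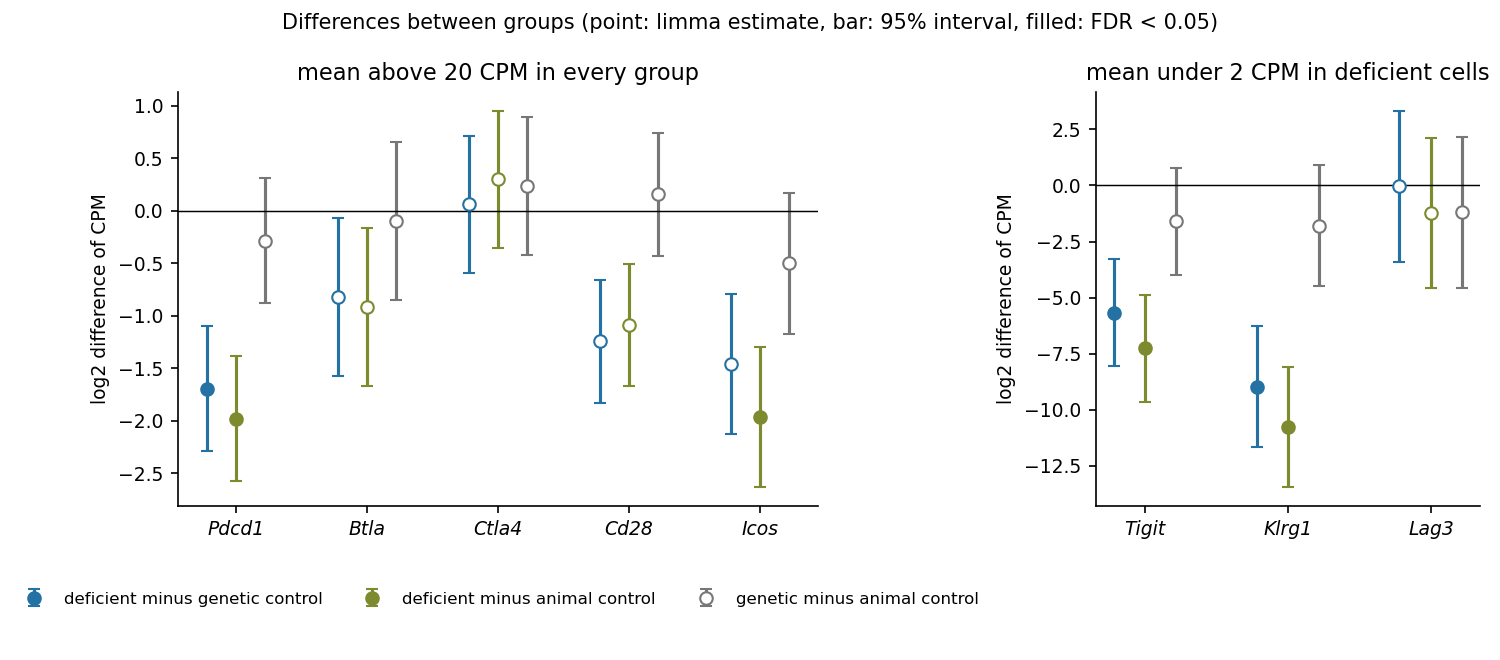
Log2 difference of CPM between groups for each receptor, with the 95% interval from limma; filled points passed a false discovery rate under 0.05 and the panels have different vertical scales. Pdcd1, Tigit and Klrg1 are filled in both comparisons of the deficient cells and Icos in that with the animal controls, while the intervals of Ctla4 and Lag3 cross 0 throughout.

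Levels of different genes were compared per kilobase of merged exon (GENCODE M21), which does not allow for the isoform used. Pdcd1 had the highest mean in every group, at 26.4 ± 0.998 CPM per kb in the deficient cells, 87.4 ± 23.4 in the genetic controls and 107 ± 33.5 in the animal controls (SD, n = 3 each). In the genetic controls Btla (36.2 CPM per kb), Ctla4 (22.6) and Icos (17.4) followed, with ranges that did not overlap down to Icos. Cd28 (15.7), Klrg1 (14.9) and Tigit (14.1) came next, and neighbours from Icos to Tigit in that order overlapped. In the animal controls Btla (40.4), Klrg1 (34.7) and Tigit (33.7) followed Pdcd1, each overlapping its neighbour among these 3, then Icos (24.8), which overlapped Ctla4 (19.5), and Cd28 (14.1). In the deficient cells Pdcd1, Ctla4 (23.9 ± 4.72 CPM per kb) and Btla (20.3 ± 3.92) overlapped at the top, and Cd28 (6.69) and Icos (6.50) overlapped below them. Lag3 was last in both control groups (1.67 and 1.87 CPM per kb), whereas Tigit (0.291) and Klrg1 (0.0234) were below it by mean in the deficient cells.

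The profile of each receptor over the 9 libraries, taken as log2 CPM minus its own mean, was set against 7887 genes averaging at least 10 CPM, with the root mean square difference in log2 units as the measure of likeness. The closest to Pdcd1 were Nt5e, which encodes the ectoenzyme CD73 (0.296), Igf1r, a growth factor receptor (0.326), and Icos (0.337). Icos was closest to Nt5e (0.270), Capg, an actin-capping protein (0.272), and S100a11, a calcium-binding protein (0.282). Cd28 was closest to Cd4 (0.207), Ifi27l2a (0.217) and Syngr2 (0.230). Nt5e was thus among the 3 closest genes of both Pdcd1 and Icos, which were also the closest pair among the receptors.

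Ctla4 was closest to Slc9a3r1 (0.120), Galnt6 (0.140) and Uqcrc2, a subunit of the respiratory chain (0.153), and Btla to Pex2 (0.174), Tnfaip8 (0.262) and Rab24 (0.281). The lowest and most variable receptors were farther from every candidate gene. The closest to Klrg1 were Gcat (0.554), Il1r2, a decoy receptor for IL-1 (1.16), and Cxcr6, a chemokine receptor (1.21), and the closest to Tigit were Unc93b1 (1.47), Ly6a, the surface antigen Sca-1 (1.57), and Tbc1d30 (1.60). For Lag3, Haus4 (0.709) and Gbe1 (0.800) came first.

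Of 36 other measured genes within 200 kb of a receptor, 1 passed the test against either control, and that was Cd4. Over all genes, 0.869% passed against the genetic and 0.891% against the animal controls. Zbtb20, 6.26 kb from Tigit, measured 67.3 CPM in the deficient cells, 61.0 in the genetic controls and 64.5 in the animal controls (limma adjusted p = 0.960 and 0.965). M6pr, 25.8 kb from Klrg1, had log2 differences of -0.58 and -0.47 (limma adjusted p = 0.250 and 0.343). The M6pr means were 214, 321 and 298 CPM in deficient cells, genetic controls and animal controls. Phc1, a Polycomb gene 34.8 kb from Klrg1, lay the other way, at 36.9 CPM in the deficient cells against 7.33 and 11.3 CPM in genetic and animal controls. All deficient libraries were above all controls for Phc1, but its log2 differences of 2.72 and 1.62 did not pass the test (limma adjusted p = 0.237 and 0.481). Near Lag3, Ptms (1.98 kb away), Pianp (85.0 kb) and Lpcat3 (200 kb) were also higher in every deficient library than in any control. None of them passed the test, and most of the 23 measured genes near Lag3 overlapped both controls. Of all genes, 15.7% lay wholly apart from the genetic controls and 15.9% from the animal controls. Ptms averaged 37.7, 15.1 and 24.6 CPM in deficient cells, genetic controls and animal controls. In the same order Pianp averaged 11.6, 0.00943 and 1.02 CPM, and Lpcat3 109, 41.3 and 64.6 CPM. The genetic control mean of Pianp was near the lowest value of the table.

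Among 14 other inhibitory receptors measured, 1 fell and 0 rose against each control, with a median log2 difference of -0.40 and -1.16, beside 0.04 for all genes tested in each comparison. These medians include genes at the lowest value of the table in several libraries. Against the animal controls Havcr2, Lair1 and Klrd1 had log2 differences of -3.85, -2.78 and -2.73, and Ceacam1 5.02, with none passing the test. For this list and those below, 0.869% and 0.891% of all genes were called in either direction against genetic and animal controls. At an unadjusted limma p under 0.05, 3 were lower and 1 higher against the genetic controls, and 4 lower and 2 higher against the animal controls. Of all genes, 10.6% and 11.9% were in either direction. The receptor that fell was Lilrb4, an immunoglobulin-like inhibitory receptor, at 0.0117 ± 0.0124 CPM in the deficient cells, 5.07 ± 1.71 in the genetic controls and 6.72 ± 2.49 in the animal controls (SD, n = 3 each; limma adjusted p = 0.0198 and 0.0118); reads shared with its near-identical paralog make this value uncertain. The call against the genetic controls was lost without genetic control 124, 8619 or 8800 (limma adjusted p = 0.0561, 0.0848 and 0.0931) and on log2(CPM + 1) (0.0851). It was also lost on the 6 libraries compared alone (0.0880) and without both genetic control 8619 and animal control 232614 (0.130). The call against the animal controls was lost in 5 alternative fits, among them those without animal control 142114 or 432614 (limma adjusted p = 0.0621 and 0.0543) and the paired fit (0.311). Cd160, which shares the ligand HVEM with BTLA and was chosen after its values were seen, measured 106, 95.6 and 108 CPM in the deficient libraries 142114, 232614 and 432614, against 3.70 to 25.9 CPM in the genetic and 9.80 to 41.8 CPM in the animal controls. It was higher in every deficient library than in any control but did not pass the test (log2 difference 3.49 ± 0.73 and 2.24 ± 0.73, SE, n = 3 against 3; limma adjusted p = 0.0693 and 0.248).

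Of 11 ligands measured, 0 fell against the genetic controls and 1 fell against the animal controls, with medians of -1.25 and -1.38, and 0 rose. The median of -1.38 is the value of H2-Aa (limma adjusted p = 0.951), which ran from 0.00457 to 19.0 CPM among the deficient libraries. Other ligands also lay near the lowest value of the table in some libraries. At an unadjusted limma p under 0.05, 2 and 3 of the ligands were lower and 0 higher, against 10.6% and 11.9% of all genes in either direction. The ligand called lower was Cd86, a ligand of CD28 and CTLA-4, at 25.5 ± 3.36 CPM in the deficient cells, 60.5 ± 4.72 in the genetic controls and 76.3 ± 19.2 in the animal controls (SD, n = 3 each; limma adjusted p = 0.0955 and 0.0382). That call was lost in 13 alternative fits, among them every fit without 1 library (limma adjusted p between 0.0621 and 0.110) and the paired fit (0.302). Of 10 activating partners and SLAM receptors, 0 rose and 0 fell against either control (medians -0.13 and 0.12), and of 22 genes of receptor-proximal signalling 0 rose and 0 fell (medians 0.06 and 0.21). At an unadjusted limma p under 0.05, 2 and 0 of the former and 3 and 6 of the latter were counted against genetic and animal controls, where 10.6% and 11.9% of all genes were.

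Of 13 genes of receptor trafficking and shedding, 1 fell against the genetic controls and 0 against the animal controls, and 0 rose (medians -0.14 and -0.03). At an unadjusted limma p under 0.05, 1 and 2 of them were lower and 0 higher. The shares of all genes in either direction were 10.6% and 11.9%. Trat1, an adaptor that carries CTLA-4 to the surface and stabilizes the T cell receptor, was the gene called, at 40.7 ± 9.25 CPM in the deficient cells, 105 ± 16.9 in the genetic controls and 97.1 ± 9.77 in the animal controls (SD, n = 3 each). Its limma adjusted p was 0.0429 and 0.0575, and the call was lost without any 1 library (limma adjusted p between 0.0654 and 0.155). The call was also lost without the trend (limma adjusted p = 0.122), on the 6 libraries compared alone (0.114) and without both genetic control 8619 and animal control 232614 (0.189). Lrba, which protects CTLA-4 from lysosomes, measured 29.0, 17.1 and 31.8 CPM on average in deficient cells, genetic controls and animal controls, with overlapping groups (limma adjusted p = 0.682 and 0.957); it was chosen after its values were seen.

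Of 25 transcription factors linked to these receptors, 1 rose against the genetic controls and 1 fell against the animal controls, with medians of -0.54 and -0.48. At an unadjusted limma p under 0.05, 8 were lower and 2 higher against the genetic controls, and 9 lower and 0 higher against the animal controls, beside 10.6% and 11.9% of all genes in either direction. Runx3, a factor of the CD8 lineage, rose from 24.2 ± 9.33 to 96.1 ± 5.44 CPM against the genetic controls (limma adjusted p = 0.0240) and stood at 70.6 ± 19.3 CPM in the animal controls (limma adjusted p = 0.647; SD, n = 3 each). The Runx3 call was lost without genetic control 124 (limma adjusted p = 0.0696) or 8619 (0.0866), without any deficient library (0.0823, 0.0729 and 0.0820) and without animal control 432614 (0.0506). It was also lost without the trend (limma adjusted p = 0.0679), on the 6 libraries compared alone (0.0838) and without both genetic control 8619 and animal control 232614 (0.126). Foxp3 was the factor that fell against the animal controls, and it was also lower in the genetic than in the animal controls, both of which keep both factors (log2 difference -4.78 ± 0.25, SE, n = 3 against 3; limma adjusted p = 5.55e-05). Its limma adjusted p against the animal controls was 5.18e-05, or 0.0953 in the paired fit. The 2 control groups differ in the Foxp3 allele, the sorting gate and the mice they came from, which also differ in genotype. These differences cannot be told apart. The effector Treg factors Batf and Maf, chosen after their values were seen, were lower in all deficient than in all control libraries, at 12.7 against 73.7 and 85.5 CPM and at 10.7 against 43.4 and 94.8 CPM, but missed the threshold (limma adjusted p = 0.0955 and 0.0769 for Batf, 0.215 and 0.0623 for Maf).

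**Figure D4:**
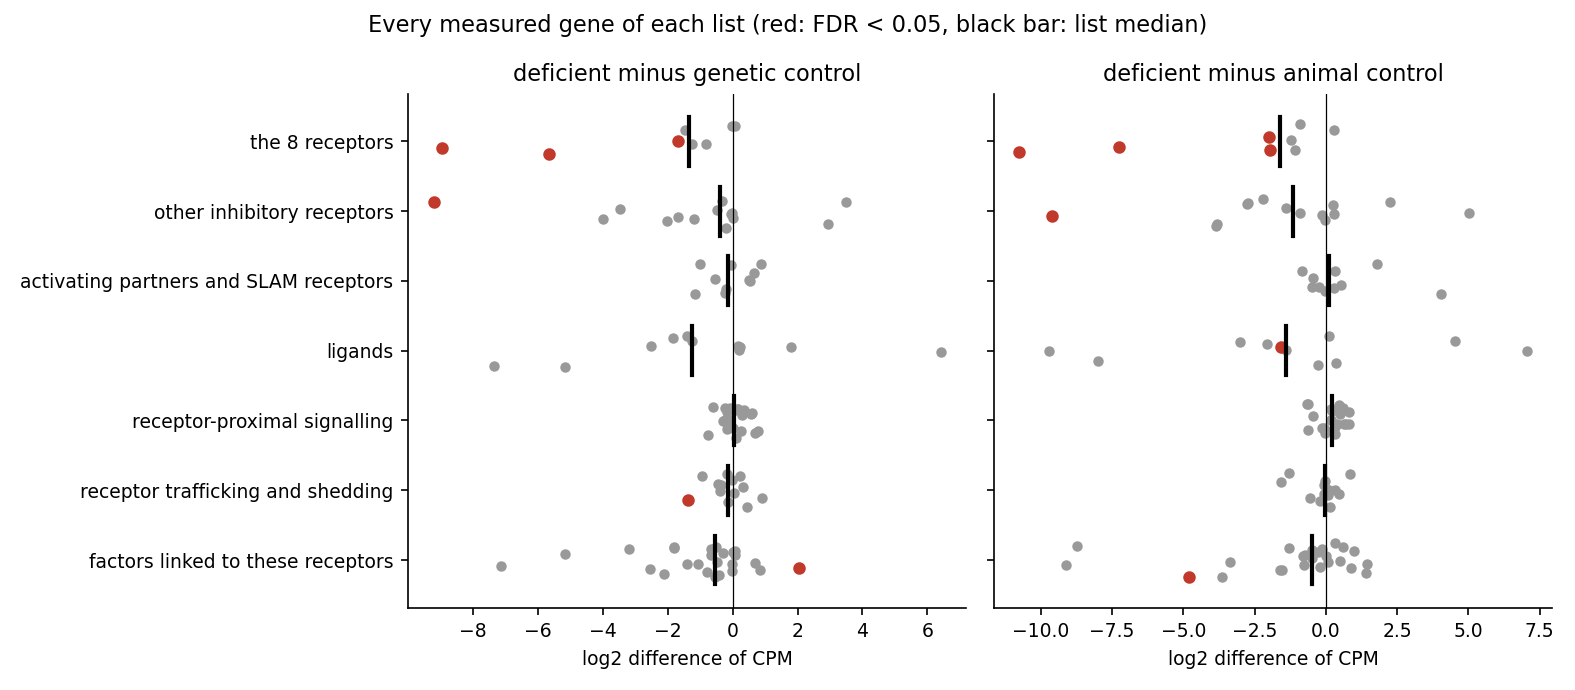
Log2 difference of CPM for every measured gene of each list, against the genetic controls (left) and the animal controls (right); red points passed a false discovery rate under 0.05 and black bars are list medians. The 8 receptors have medians of -1.35 and -1.59, while those of receptor-proximal signalling genes are 0.06 and 0.21.

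Markers of other T cell states and other cells were summed in each library. Against either control, 0 of the 6 follicular helper markers measured were called. Of 8 follicular helper markers 6 were measured, and their summed level was 127 to 155 CPM in the deficient cells, 165 to 297 CPM in the genetic controls and 227 to 349 CPM in the animal controls, lower in every deficient library as Pdcd1 and Icos were. Bcl6, the defining factor of these cells, did not follow the sum: it averaged 34.6 CPM in deficient libraries, overlapping the genetic controls (42.2 CPM), and all animal controls (17.2 CPM) lay below every deficient library. Il4 was under 1 CPM in 7 of 9 libraries, and the part of such cells in the result was not tested. The summed level of the 8 naive or resting T cell markers was 5032 to 5829 CPM in the deficient cells, 5370 to 5782 CPM in the genetic controls and 4293 to 5019 CPM in the animal controls. Of these 8, 1 was called lower against the genetic controls and 0 against the animal controls, and 0 higher. They lay in both directions. Satb1 averaged 858 CPM in deficient cells against 592 and 415 CPM in genetic and animal controls, and Ccr7 813 against 576 and 506 CPM. Il7r averaged 177 against 329.5 and 544 CPM, and Igfbp4 73.7 against 278 and 178 CPM. The 10 Treg markers summed to 3006 to 3477, 3564 to 4540 and 5729 to 6138 CPM in deficient cells, genetic controls and animal controls. Of them, 3 and 5 were called lower in the deficient cells and 0 higher, where 0.533% and 0.584% of all genes were called lower. They did not all lie in one direction. Gpr83 averaged 1034 CPM in deficient cells against 665 and 705 CPM in genetic and animal controls, and Lrrc32 473 against 389 and 429 CPM. Foxp3, with the means given above, is part of the sum. The part of Treg markers in the result was not tested either. The 6 B cell markers measured (of 9) summed to 52.9 to 71.9, 22.3 to 28.8 and 57.9 to 108 CPM, and the 6 myeloid markers (of 11) to 131 to 173, 96.7 to 485 and 101 to 143 CPM in the same order, with genetic control 8619 the highest. The 6 erythroid markers measured (of 8) summed to 0.833 to 40.8, 0.0917 to 76.1 and 0.0817 to 0.465 CPM. Without both that library and animal control 232614, 0 of the 8 receptors were called against the genetic controls and 1, Pdcd1, against the animal controls, with log2 differences of -1.86 (limma adjusted p = 0.0780) and -2.15 for Pdcd1.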

How the data were processed

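The tools named are bcl2fastq 1.8.4, STAR 2.4.0h and limma, with the mm10 build, per the submitters' processing notes. For the counting tool, its annotation and filters, the sources used here say nothing. The authors deposited log2 values whose linear values sum to between 999252 and 999256 per library, with the same lowest and highest value in all 9 columns, so they were read as quantile-normalized log2 CPM. Of 13702 rows, 4 exact duplicates were dropped. All 13698 genes were fitted with limma 3.58.1 (R 4.3.3), with the trend and without a pseudocount, in a single model of 3 group means, with two-sided contrasts and Benjamini-Hochberg adjustment at 0.05. The script was tested on simulated data. Differences have 95% intervals from that fit; no counting interval is given, since depth is unknown.

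The members, lists and alternatives were chosen with earlier results of these data known. Named genes were the receptors, called list members, the 3 closest profiles and neighbours within 200 kb, beside those stated as chosen after their values were seen. Positions and exon lengths came from GENCODE M21 (GRCm38), where all 8 receptors matched; promoters came from RefSeq, where 4 matched. For Lag3, 1 close profile is not reported here. Symbols of the lists were also matched by older names.

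Deficient cells and animal controls of one number come from the same mice, per the series' design text. After group means were removed, same-number libraries correlated at 0.0483, 0.0202 and 0.0170 across 7550 genes, and others at between -0.0304 and 0.00803. The reported fit had no mouse term. Alternatives with a fixed or a random mouse term, no trend, other scalings, log2(CPM + 1), fewer libraries and robust or weighted fits were tried.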

Additional observations from a re-analysis of the deposited data

How the results depend on the processing

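Counts of calls moved more than directions did. Against the genetic controls 119 genes passed in the reported fit, 22 on the 6 libraries compared alone, 21 without both genetic control 8619 and animal control 232614, and between 48 and 93 without 1 library. Of the receptors 3 passed there, 1 without the trend, 0 on the 6 libraries alone, 1 on log2(CPM + 1), 0 without both libraries, and between 0 and 2 without 1 library. Against the animal controls 122 genes passed, 52 on the 6 libraries alone, 27 without both libraries, and between 58 and 115 without 1 library. Of the receptors 4 passed there, 3 without the trend, 2 on the 6 libraries alone, 1 without both libraries, and between 2 and 4 without 1 library. With the mouse as a fixed term (replicate block, 6 libraries) 0 genes and 0 receptors passed against the animal controls; as a random term 148 genes and 4 receptors did, and Trat1 passed as well (adjusted p = 0.0471), as it did on log2(CPM + 1) (0.0480). Between the controls 5 genes passed, 32 without the trend, 3 on the 6 libraries alone, 1 without both libraries, and between 4 and 10 without 1 library. The cause of these shifts was not tested.

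Some differences that were not called changed sign. Against the genetic controls Ctla4 ran from -0.068 to 0.22 without 1 library, Lag3 from -1.74 to 0.94, and Foxp3 from -0.23 to 0.10; without both libraries Lag3 was 0.94 and Foxp3 0.054, and with array weights Lag3 was 0.035. Between the controls Lag3 ran from -2.17 to 0.51 and Btla from -0.37 to 0.25 without 1 library, and Btla was 0.46 without both. Pdcd1, Tigit, Klrg1, Icos, Cd28 and Btla were lower in the deficient cells against both controls in every fit run. Depth is unknown, and values under 1 CPM set the size of the Tigit, Klrg1 and Lilrb4 differences.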
